A study of Mus musculus with 4 samples.

Results

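The first 2 h of transcriptional shut-off in RAW264.7, an established line of mouse macrophages, were followed by comparing the untreated library with the library taken after 2 h of actinomycin D at 10 µg/ml. These are 2 of the 4 libraries of a time course that also has libraries at 4 h and 6 h, and they were chosen by the treatment named in the labels. Of 41324 genes in the count table, 17305 had a count in either library and 10838 had a mean CPM of at least 1 over both and were compared. CPM here is a gene's counts scaled to a common library total corrected by TMM, which takes the typical gene as unchanged. All libraries came from cytoplasmic RNA of this line, per the labels, after removal of ribosomal RNA and with a strand-keeping kit. The design text gives transcriptome-wide mRNA half-lives as the aim of the course.

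Actinomycin D inserts into DNA and stops RNA polymerases, so that an RNA is no longer renewed and its later level follows its decay. Short-lived mRNAs, typically those of transcription factors, cytokines and signalling inhibitors, are marked for early removal by elements in their 3' untranslated regions (3' UTRs). AU-rich elements are the classical example in macrophages, where they are bound by proteins such as tristetraprolin (gene Zfp36) that recruit the deadenylase complex. Replication-dependent histone mRNAs carry no poly(A) tail, end in a stem loop bound by Slbp, and are tied to DNA synthesis.

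Each time had 1 library, and separate cultures for the times are not stated in the labels. No difference therefore has a replicate check, no test was made, and the intervals given in brackets are exact 95% intervals for counting error only. No spike-in was named either, so each value is relative to the typical gene. A level above 100% of untreated can mean less loss than the typical gene, no loss or a gain, and these cannot be told apart. The untreated library held 35669434 counts and the 2 h library 38260540. The 95% counting interval of a ratio typically reached about 0.688 to either side on the log2 scale for genes at a CPM near 1. It reached about 0.217 near 10 and 0.0684 near 100.

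The libraries differed in composition. The clone-named genes RP23-81C12.1 and RP23-81C12.3 together took 26.7% of the untreated counts and 0.429% of the 2 h counts, and the mitochondrial ribosomal RNAs mt-Rnr1 and mt-Rnr2 took 1.79% and 4.49%. With these 4 genes left out of plain library totals, 1039 genes were at least 2-fold lower and 71 at least 2-fold higher, close to the values under TMM below. Other scalings move all genes together. The median log2 ratio of all genes shifted by 0.41 with total counts, by −0.24 with ribosomal protein genes as the reference and by −0.28 with the divisors that the authors used for their normalized columns. All 12 macrophage markers were measured, from Lyz2 and Csf1r to Adgre1, with a summed CPM of 4345 untreated and 4719 at 2 h. None of 16 markers of other cell types reached the CPM minimum, and 9 of them had no count in either library.

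Loss by 2 h was uneven and one-sided. Most genes kept together: 8339 of 10838 (76.9%) lay within 0.5 of 0 on the log2 scale, with a median of 0.00. The lower tail was long, with the 5th percentile at 37.1% of untreated and the 95th at 132%. At least 2-fold lower were 1034 genes (9.54%), at least 4-fold lower 205 genes (1.89%) and at least 8-fold lower 25 genes. At least 2-fold higher were 71 genes (0.655%). The counting interval of each of the 1034 lay below 100% of untreated, and for 745 of them it lay wholly below 50.0%. Among the 8100 genes with a mean CPM of at least 10, 616 (7.60%) were 2-fold lower and 2 were 2-fold higher. The 2-fold line itself divides near-identical genes: Aurka at 4722 and 3357 counts and Prdm15 at 486 and 345 lay just inside it, and Zbtb22 at 984 and 700 and Oasl1 at 837 and 596 just outside.

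**Figure D1:**
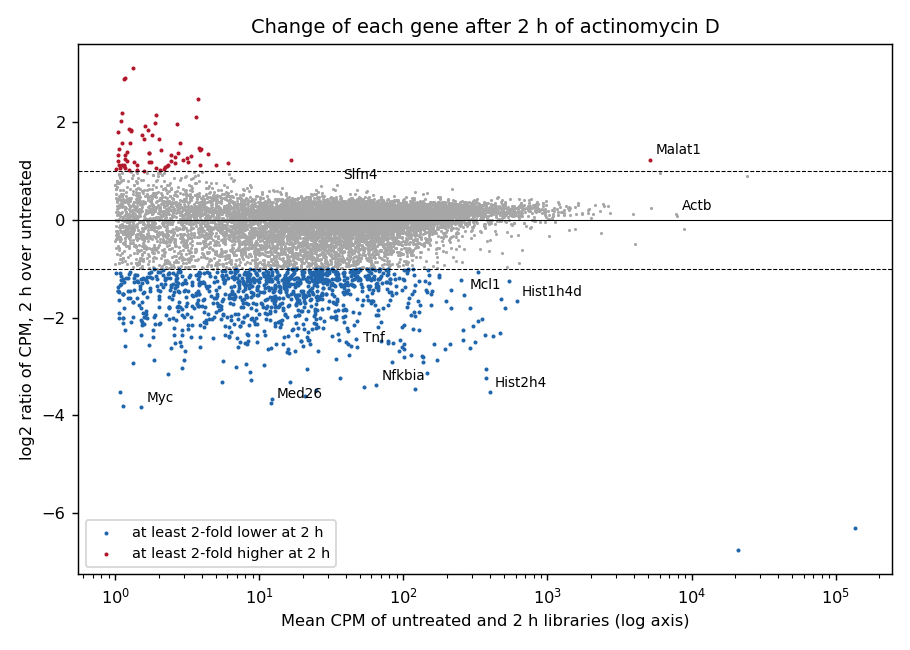
Each point is 1 of 10838 genes, placed by its mean CPM over the untreated and 2 h libraries (log axis) and its log2 ratio of CPM at 2 h over untreated; dashed lines mark 2-fold. The 1034 genes below the lower line spread over all levels, while of the 71 above the upper line only Malat1 and Gm22009 had a mean CPM of at least 10; the lowest points at the right are RP23-81C12.1 and RP23-81C12.3.

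The later steps moved fewer genes. Between 2 h and 4 h, 111 of 10760 genes were at least 2-fold lower (1.03%), and between 4 h and 6 h, 29 of 10755 (0.27%). These steps share the 2 h and 4 h libraries with each other and with the first step, so no relation between them is drawn, and the 6 h library held only 12762100 counts.

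The 15 lowest named mRNAs at 2 h, among genes with a mean CPM of at least 10, encode proteins of varied function. Med26 (chr8:72494561-72548270, minus strand), a subunit of the Mediator coactivator, had 688 counts untreated and 72 at 2 h, a CPM of 22.6 and 1.66. It stood at 7.36% of untreated [5.69 to 9.39]. Nuak2 (chr1:132316126-132333488, plus strand), a kinase of the AMPK-related family, went from a CPM of 22.9 to 1.78, or 7.77% [6.06 to 9.84]. Rasgef1b (chr5:99217426-99729065, minus strand), a Ras-family exchange factor, went from 38.3 to 3.12, or 8.13% [6.76 to 9.73]. The intervals of these 3 overlap, so their order is not resolved by counting.

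Ppp1r10 (chr17:35916434-35932283, plus strand), which encodes the nuclear phosphatase-targeting subunit PNUTS, had 2966 and 391 counts and stood at 9.27% [8.32 to 10.3]. Nfkbia (chr12:55489410-55492647, minus strand), the inhibitor that holds NF-kB in the cytoplasm and is itself an NF-kB target, had 3612 and 490 counts and stood at 9.54% [8.66 to 10.5]. Both were counted deeply enough that their intervals span under 2 percentage points. The kinase gene Dyrk3 stood at 10.0% [8.24 to 12] and Gpr183, an oxysterol-sensing chemotactic receptor, at 10.6% [9.36 to 12]. Pdgfb, a platelet-derived growth factor chain, stood at 12% and the F-box gene Fbxo46 at 12.6%. Nrros, which encodes a membrane protein of myeloid cells that binds latent TGF-beta, had the most counts of the 15 (5336 and 1086) and stood at 14.3% [13.4 to 15.3].

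Of the other 5 of these 15 genes, Fos, an AP-1 subunit, had 851 and 183 counts and stood at 15.1% [12.8 to 17.8]. Fbxo5, the APC/C inhibitor Emi1, and Klhl25, a Cul3 adaptor, both stood at 15.6%. Ctu1, a tRNA thiolation enzyme, stood at 16% and the Kruppel-like factor gene Klf2 at 16.1%. All 15 thus kept under 1 in 6 of their untreated CPM. Transcript structure differed widely among them, from 2 exons in Gpr183 and Fbxo46 to 20 in Ppp1r10.

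The AU-rich heptamer TATTTAT was searched on the transcript strand of annotated 3' UTRs (GENCODE M21, mm10), and 28.7% of the 9705 measured genes with such a UTR held it. Among the 15 lowest genes, Nuak2, Nfkbia, Pdgfb, Fbxo46, Nrros, Fos and Klf2 held it and the other 8 did not. The sites below are shown as examples from 5 of these 7 genes and from Tnf, a cytokine mRNA with overlapping copies. Capitals mark the heptamer, each sequence runs 5′ to 3′ on the transcript's strand, and coordinates are mm10.
Nuak2, chr1:132332938-132332966, plus strand: atgtgctgactTATTTATttttttgtgat
Nfkbia, chr12:55489608-55489636, minus strand: ggaccacgtttTATTTATtgtgcttttga
Nrros, chr16:32142830-32142858, minus strand: tcctggtgaaaTATTTATtaaacgacatt
Fos, chr12:85477103-85477131, plus strand: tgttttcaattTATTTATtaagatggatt
Klf2, chr8:72320988-72321016, plus strand: aaacagactgcTATTTATtggaccttagg
Tnf, chr17:35199689-35199717, minus strand: tttgcacttatTATTTATTATTTATTTAT
Tnf held 8 matches in a 3' UTR of 764 bases, Fos 2 in 815 and Nfkbia 2 in 512. The same letters also stood in mRNAs that were not reduced, and 2 of these are shown for contrast. Ccnd1, the G1 cyclin D1, had 16527 and 23431 counts and stood at 99.7% of untreated [97.7 to 102], and Slfn4, a Schlafen gene of myeloid cells, had 798 and 1878 counts and stood at 165% [152 to 180].
Ccnd1, chr7:144931310-144931338, minus strand: ctacagaagagTATTTATgggaaaggctg
Slfn4, chr11:83189572-83189600, plus strand: ctatttttttcTATTTATatgatcatttc
A match in these letters is a description and does not show that a protein binds there.

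Gene lists were compared by how many measured members were at least 2-fold lower, against 9.54% of all genes, and by their median log2 ratio, against 0.00 for all genes. The lists with the lowest medians were replication-dependent histones, immediate-early factors and signalling feedback regulators. Ribosomal protein, respiratory chain and lysosomal lists had the highest. Scaling shifts all lists alike, so their order does not depend on it, but the sign of a median nearer to 0 than the shifts given above does.

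**Figure D2:**
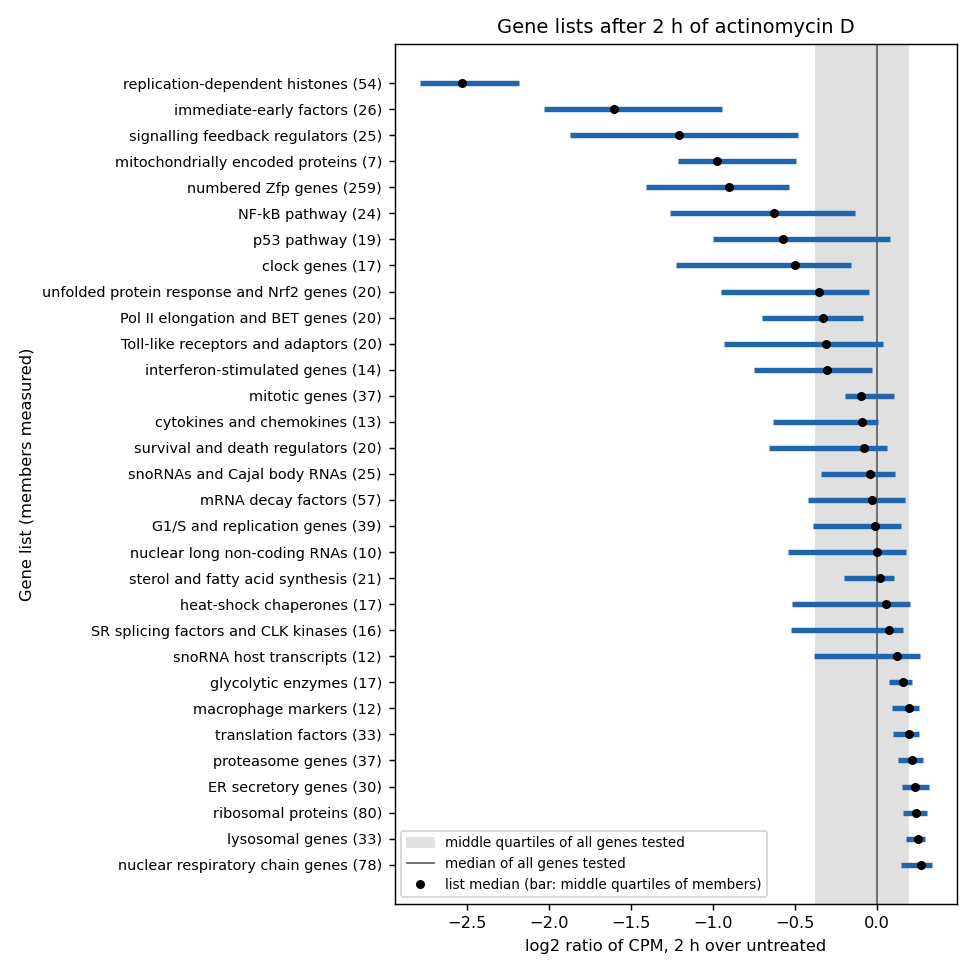
Points give the median log2 ratio of CPM at 2 h over untreated of each gene list, bars the middle quartiles of its measured members, and the number of members is in brackets; the grey band is the middle quartiles of all 10838 genes. Histones (median −2.53), immediate-early factors (−1.60) and feedback regulators (−1.21) lie lowest and lie below the grey band. The respiratory chain (0.27) and lysosomal (0.25) lists lie highest, and both medians were below 0 with the authors' divisors.

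Replication-dependent histone mRNAs, which supply chromatin during S phase, were the most uniformly reduced list. Of 67 listed genes 54 were measured, 53 were at least 2-fold lower and 45 at least 4-fold lower, with a median of −2.53 (17.3% of untreated). The median level went on to 5.89% at 4 h and 3.21% at 6 h. Hist2h4 (chr3:96261682-96263311, minus strand) went from 22216 counts untreated to 2729 at 2 h, or 8.64% [8.30 to 8.99], and to 1.97% and 1.32% at 4 h and 6 h. Hist1h4d, the most counted member, went from 28276 to 12664, or 31.5% [30.8 to 32.2], and to 14.4% and 7.61%. Members of this list are near-identical copies whose reads could be split among them, so single members are uncertain. The linker histone gene Hist1h1d stood at 10.5% [10.1 to 11]. Summed over the list, which does not depend on such a split within it, CPM was 14602 untreated and 2852 at 2 h.

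The histone stem loop was searched as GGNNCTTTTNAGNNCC on the transcript strand, where N is any base. It stood in 43 of 9705 3' UTRs (0.443%), and 35 of these 43 were replication-dependent histones, out of 43 such histones with an annotated 3' UTR. The 4 stem loops below are shown because they come from strongly and from less strongly reduced members of 3 histone classes. Capitals mark the whole match.
Hist2h4, chr3:96262933-96262960, minus strand: cctaacGGCCCTTTTTAGGGCCaaccac
Hist1h1d, chr13:23555781-23555808, plus strand: tcaaacGGCTCTTTTCAGAGCCacccac
Hist1h3f, chr13:23544926-23544953, plus strand: caaaacGGCTCTTTTAAGAGCCacctcc
Hist1h4d, chr13:23581944-23581971, plus strand: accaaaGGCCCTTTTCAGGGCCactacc
Histones with a match had a median of −2.54 and the 8 without one a median of −2.24. Of these 8, Hist1h2af, Hist1h2ah, Hist2h3b and Hist1h1a have annotated 3' UTRs of only 1, 2, 37 and 48 bases. Hist2h2be, the only measured histone of the list that was not lower, had 195 and 335 counts, or 121% [101 to 145]. Its annotated 3' UTR of 2192 bases held no match. Of the 8 genes outside the list with a match, H2afx, a variant histone gene of DNA damage signalling, was at 42.0% of untreated [41.1 to 42.9]. The other 7, which include Ucp2, Syncrip and Agrn, lay between −0.20 and 0.26 on the log2 scale. Slbp itself, whose protein binds the stem loop, stood at 94.8% [89.3 to 101] at 2 h, 76.5% at 4 h and 55.3% at 6 h.

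Immediate-early factors, transcription factors and regulators induced without new protein synthesis, were the lowest list of poly(A)-tailed mRNAs. Of 28 genes 26 were measured, 19 were at least 2-fold lower and 8 at least 4-fold lower, and all 26 were below 0, with a median of −1.60 (32.9% of untreated). Scaling by total counts left this median at −1.20. Myc had few counts, 86 untreated and 8 at 2 h, and stood at 6.54% with a wide interval [2.74 to 13.5]. Fos and Klf2, shown above, came next. Egr2 stood at 18.9% [14.7 to 24.1] and Junb, another AP-1 subunit, at 23.5% [22.0 to 25.2] on 3469 and 1161 counts. Btg1, an antiproliferative gene with the most counts of the list at 6182 and 2372, stood at 27.0% [25.7 to 28.3]. Members at the other end were Srf, the factor that drives many of these genes, at 88.3% [84.5 to 92.2], and Nr4a2 at 98.9% [76.1 to 129].

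These factors did not share one later course. Btg1 went on to 13.7% at 4 h and 15.6% at 6 h and Atf3 from 26.6% to 16.1% and 14.2%. In contrast, Fos stood at 15.1%, 18.4% and 28.4% at 2, 4 and 6 h, Jun at 39.6%, 56.3% and 90.2%, and Ier2 at 46.6%, 53.3% and 81.9%. For Jun the 2 h interval [36.7 to 42.7] lay below the 4 h interval [53.1 to 59.8], while for Fos and Ier2 the intervals at 2 h and 4 h overlapped and only the 6 h interval lay above that at 2 h. The median of the list was 32.9%, 30.5% and 41.4%.

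Feedback regulators of kinase, cytokine and TGF-beta signalling followed. Of 25 measured, 16 were at least 2-fold lower, 5 at least 4-fold lower, and the median was −1.21 (43.3% of untreated). Cish, a cytokine-induced inhibitor of STAT signalling, stood at 15.9% [10.3 to 24.0] on 128 and 29 counts. Among the MAP kinase phosphatases Dusp5 stood at 19.3% [13.3 to 27.5] and Dusp4 at 22.3% [18.2 to 27.2]. The Sprouty gene Spry2, an inhibitor of receptor tyrosine kinases, stood at 24.1% [19.2 to 30.1]. The Id genes, which block bHLH factors, were at 27.3% for Id1, 39.0% for Id3 and 60.7% for Id2. Spred1, the most counted member at 20893 and 24055, stood at 81.0% [79.5 to 82.5]. Dusp1 stood at 71.5%, and Socs1 at 154% [103 to 232] on only 38 and 83 counts.

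NF-kB pathway members spanned a wide range. Of 24 measured, 8 were at least 2-fold lower and 2 at least 4-fold lower, with a median of −0.63. The 2 were Nfkbia and Tnfaip3, which encodes the ubiquitin-editing brake A20 and stood at 12.2% [9.24 to 15.9]. The IkB-family genes Nfkbid and Bcl3 stood at 29.9% and 30.4% [23.7 to 38.8], Nfkbie at 60.3%, Nfkbiz at 83.9% and Nfkbib at 90.8%, and the deubiquitinase gene Cyld, another brake on the pathway, at 116%. Among adaptors and ubiquitin ligases Traf2 stood at 35.7%, Birc3 at 36.8% [33.6 to 40.2], Traf1 at 43.5% [38.4 to 49.3], Traf6 at 56.3%, Birc2 at 70.2% and Traf3 at 93.2%. The DNA-binding subunits stood at 60.8% for Rel, 69.0% for Relb, 70.2% for Rela, 77.0% for Nfkb2 and 102% [99 to 106] for Nfkb1. The kinase genes Ikbkb and Chuk stood at 110% and 128%. Inhibitors, adaptors and DNA-binding subunits thus overlapped in level.

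Of 24 listed cytokines and chemokines 13 were measured, and the other 11 lay under the CPM minimum. The median of the 13 was near that of all genes at −0.09 (0.21 at the highest under other scalings), and 9 lay below 0. At least 2-fold lower were 3 of them (23.1%), against 9.54% of all genes. Those 3 were Tnf at 16.4% [15 to 18], on 2495 and 583 counts, the chemokine gene Ccl4 at 29.0% [24.9 to 33.6] and Osm, an IL-6 family cytokine, at 28.9% [22.0 to 37.6]. Ccl3, the neighbour of Ccl4 in its gene cluster, stood at 64.4% [60.1 to 69.1], above the interval of Ccl4. Other members stood higher, with Spp1 (osteopontin) at 110% [108 to 113] and Ccl9 at 119% [114 to 123]. Both stood higher again later relative to the typical gene, Spp1 at 301% and Ccl9 at 244% at 6 h. Il1rn, the interleukin-1 receptor antagonist, stood at 94.3%, 142% and 293% at 2, 4 and 6 h.

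Pattern-recognition and interferon genes showed single strong losses on lists whose medians lay below 0 under TMM but not under every scaling. Of 20 measured Toll-like receptor pathway genes, 5 were at least 2-fold lower, with a median of −0.31 (0.09 with total counts). Ticam1, the TRIF adaptor, stood at 17.7% [14.4 to 21.6] and Tlr2 at 35.1% [33.7 to 36.6] on 7020 and 3506 counts. Tlr2 went on to 15.5% at 4 h and 12% at 6 h. The adaptor gene Myd88 stood at 110% and the co-receptor gene Cd14 at 79.8% [78.2 to 81.4]. Of 24 listed interferon-stimulated genes 14 were measured and 10 lay under the CPM minimum, with a median of −0.30 (0.10 at the highest under other scalings). The 2 at least 2-fold lower (14.3%, against 9.54% of all genes) were Irf1 at 32.6% [27.0 to 39.3] and Irf9 at 39.7% [35.3 to 44.6].

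Shares in the p53, clock and survival lists were 26.3%, 35.3% and 20%. For p53-linked genes, 5 of 19 were at least 2-fold lower (median −0.57), led by the kinase gene Plk2 at 11% [6.49 to 17.7] and the phosphatase gene Ppm1d, which opposes p53 signalling, at 21.1% [18.6 to 24.0]. The p53 gene Trp53 itself stood at 105% and Cdkn1a, the inhibitor p21, at 65.9%. For clock genes, 6 of 17 were at least 2-fold lower (median −0.50), with the repressor genes Nfil3 at 10.3% [7.89 to 13.2], Bhlhe40 at 17.1% [15 to 19.5] and Per1 at 28.5% [25.9 to 31.5]. The activator genes Clock and Arntl stood at 106% and 68.5%, and the repressor genes Cry1 and Nr1d2 at 90.5% and 110%. Repressor and activator genes thus overlapped in level. For survival and death genes, 4 of 20 were at least 2-fold lower (median −0.08), with the BH3-only genes Bmf at 19.6% [15.8 to 24.1], Bbc3 at 33.5% and Bcl2l11 at 45.0%. The survival gene Mcl1, with 11948 and 5873 counts, stood at 34.6% [33.5 to 35.7], against 96.9% for Bcl2 and 50.5% for Bcl2l1.

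For the unfolded protein response and Nrf2 genes, 5 of 20 were at least 2-fold lower (median −0.35, 0.05 with total counts). Trib3 stood at 29.8% [23.5 to 37.7], Ppp1r15b, a phosphatase subunit that reverses eIF2-alpha phosphorylation, at 36.3% [34.9 to 37.8] and Xbp1 at 40.0% [38.2 to 41.8]. No member of 30 secretory genes of the endoplasmic reticulum was 2-fold lower. The chaperone gene Hspa5 stood at 87.8% [86.8 to 88.9], and the lowest member, Herpud1, which acts in endoplasmic reticulum degradation, at 59.2% [55.1 to 63.7] and at 44.4% and 43.9% later. Of 17 heat-shock genes, Dnajb1 at 43.4% [39.3 to 47.8] and Bag3 at 45.1% [41.5 to 49.0] were at least 2-fold lower, while Hsp90ab1 stood at 111%.

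Numbered Zfp genes, most of which encode zinc-finger DNA-binding proteins, were the largest list with a low median. Of 362 listed, 259 were measured, 113 (43.6%) were at least 2-fold lower and 17 at least 4-fold lower, and 246 lay below 0, with a median of −0.90 (53.5% of untreated). The median was 46.7% at 4 h and 51.9% at 6 h. Zfp472 was lowest at 9.85% [6.98 to 13.6] on 307 and 43 counts, followed by Zfp87 at 16.2% and Zfp212 at 16.3% [12.7 to 20.7]. Zfp574 stood at 19.5% [17.0 to 22.4]. The RNA-binding members Zfp36 and Zfp36l2, which bring AU-rich mRNAs to decay, stood at 31.0% [28.3 to 34] and 29.9% [28.5 to 31.3], and both hold the heptamer in their own 3' UTRs. At the other end, Zfp106 had 19706 and 33234 counts and stood at 119% [117 to 121].

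Genes of mRNA decay and splicing were mostly near the typical gene, and those of Pol II elongation were mostly lower. Of 57 mRNA decay factors, 7 were at least 2-fold lower, with a median of −0.03 (0.38 with total counts). Besides Zfp36 and Zfp36l2 these were Tob2 at 31.5%, Zc3h12a (Regnase-1, an endonuclease for inflammatory mRNAs) at 39.2%, the m6A reader genes Ythdf2 at 43.6% [41.4 to 45.8] and Ythdf1 at 48.3%, and the decapping gene Dcp1a at 48.5%. Other nuclease and decapping genes included Smg6 at 74.8%, Dcp2 at 114% and Xrn1 at 118%. Deadenylase genes included Cnot8 (90.2%), Cnot7 (121%), Parn (125%) and Cnot6, the highest member of the list, at 130% [126 to 135]. Of 16 splicing genes, the 2 at least 2-fold lower were the kinase genes Clk1 at 24.2% [20.8 to 28.1] and Clk4 at 42.2% [36.6 to 48.6], which phosphorylate SR proteins, while Srsf1 stood at 112%. Of 20 Pol II elongation genes 16 lay below 0, with a median of −0.33 (0.08 at the highest under other scalings). Hexim2 at 18.9% [13.7 to 25.7], Mepce at 19.7% [17.8 to 21.7] and Ell at 39.9% [35.5 to 44.8] were at least 2-fold lower. Hexim and Mepce proteins belong to the 7SK complex that keeps P-TEFb inactive. Hexim1, more counted than Hexim2 at 2088 and 1972, stood at 66.4% [62.4 to 70.7], and Larp7, another subunit gene of that complex, at 125% [117 to 134]. Polr2a, the catalytic Pol II subunit, stood at 98.4%.

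Cell-cycle lists other than histones had shares near the 9.54% of all genes, with 4 of 39 G1/S genes (10.3%) and 3 of 37 mitotic genes (8.11%). Among G1/S genes the reduced members were the factor genes E2f3 at 28.3% [25.9 to 30.8] and E2f7 at 49.8%, the licensing factor gene Cdt1 at 41.8% [40.0 to 43.7] and Orc1 at 48.9%. The MCM helicase genes Mcm2 to Mcm7 lay between 99.1% and 115%. Among mitotic genes they were the kinesin gene Kif18a at 29.9% [26.3 to 33.9], Ccnf at 39.0% [36.6 to 41.4] and Aurka at 50.0%. Cdt1 and Ccnf went on down, to 14.9% and 16.4% at 6 h.

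Housekeeping lists formed the upper edge. None of 80 ribosomal protein genes, 33 translation factors, 78 nuclear respiratory chain genes, 37 proteasome genes, 33 lysosomal genes or 17 glycolytic enzymes was 2-fold lower or higher. Their medians were 0.24, 0.20, 0.27, 0.21, 0.25 and 0.16 in that order, and with the authors' divisors each of these was below 0, between −0.13 and −0.01. Rpl4 stood at 126% [125 to 127], Eef1a1 at 119% [118 to 119] and Atp5b at 124% [122 to 125]. The reference genes Actb, Gapdh and Hprt stood at 106% [106 to 107], 116% [114 to 118] and 139% [134 to 144]; a ratio to Actb would therefore differ from a ratio to Hprt. Within the glycolytic list, Hk2, the regulated first-step hexokinase gene, stood apart at 50.6% [48.8 to 52.5].

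The measured mRNAs encoded in mitochondrial DNA differed in level. Of 13 listed, 6 had no count in either library, and why was not tested, so the list median leaves them out. Of 7 measured, mt-Nd2 at 29.8% [28.6 to 31.1], mt-Nd4 at 39.1% [37.1 to 41.3] and mt-Nd5 at 47.6% were at least 2-fold lower, and mt-Cytb at 51.0% and mt-Nd1 at 54.1% lay just outside, with a list median of −0.97. In contrast mt-Co1, with 50013 and 78941 counts, stood at 111% [110 to 112] and mt-Nd6, the product of the other strand, at 93.6% [87.1 to 101]. The genes mt-Rnr1 and mt-Rnr2 had log2 ratios of 0.95 and 0.91.

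Few RNAs stood at least 2-fold above untreated. Of the 71, 60 carried clone names not matched to the annotation, 5 were protein-coding, 3 antisense and 2 long intergenic RNAs. The 60 were 6.97% of 861 such clone-named genes, against 0.655% of all genes and 0.051% of protein-coding genes. Of the same 861, 90 (10.5%) were at least 2-fold lower. Most of the 71, namely 69, had a mean CPM under 10. Malat1 (chr19:5795690-5802672, minus strand), an abundant nuclear RNA, and Gm22009 were the exceptions. Gm22009 had 302 and 1005 counts, or 234% [206 to 267]. Malat1 had 93309 counts untreated and 311615 at 2 h. It stood at 235% of untreated [233 to 237], and at 257% and 305% at 4 h and 6 h. Its log2 ratio of 1.23 became 0.99 with ribosomal protein scaling and 0.95 with the authors' divisors, both just under 2-fold. Neat1, another nuclear RNA, stood at 65.7% [64.1 to 67.4], Firre at 144% [131 to 159] and Mir17hg, the host of the miR-17 cluster, at 39.4% [34.3 to 45.1]. The libraries were cytoplasmic per the labels, and whether they held unlike amounts of nuclear RNA was not tested. The antisense gene Phtf1os stood at 436% [312 to 622], and since no source used here gives the counting strand, reads of such genes could come from their partners.

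The highest mRNAs by the same CPM minimum of 10 were Slfn4 (above), Mrpl33, a mitochondrial ribosomal protein gene, at 162% [147 to 178], the kinetochore gene Cenph at 157% [138 to 178] and Hpgds, the prostaglandin D synthase of haematopoietic cells, at 155% [142 to 169]. Pde1b, Impact, Cycs (cytochrome c), Uvssa and Dtx3 lay at 152% to 153%. Small nucleolar and Cajal body RNAs, of which 25 of 147 listed were measured, had medians of 97.1%, 126% and 248% of untreated at 2, 4 and 6 h. Scarna2 was the highest at 155% [150 to 160], and at 209% and 332% later. Of 12 snoRNA host transcripts only Snhg6 was at least 2-fold lower, at 43.3% [35.0 to 53.5], while Gas5 stood at 105%.

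Levels at 4 h and 6 h show how much of the loss lay in the first step. For Med26 the level was 7.36%, 9.73% and 14.1% of untreated at 2, 4 and 6 h, for Nfkbia 9.54%, 9.52% and 11.6%, and for Ppp1r10 9.27%, 6.49% and 7.64%. These 3 genes had nearly all of their measured loss by 2 h, although Ppp1r10 was lower again at 4 h, with intervals of 8.32 to 10.3 and 5.88 to 7.15. Hist2h4, Tlr2, Cdt1 and Ccnf were lower again at 4 h and 6 h, as given above. Of these, Hist2h4 was already at 8.64% at 2 h, so it too had most of its measured loss in the first step. A single exponential through the first step alone, with the ribosomal protein median as the stable reference, gives apparent half-lives of 0.501 h for Med26, 0.551 h for Nfkbia, 0.676 h for Fos and 0.530 h for Hist2h4. The authors' deposited table lists 0.855, 0.878, 1.13 and 0.622 h for these genes. Such a value assumes immediate shut-off and 1 rate of decay, which 2 time points cannot check.

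**Figure D3:**
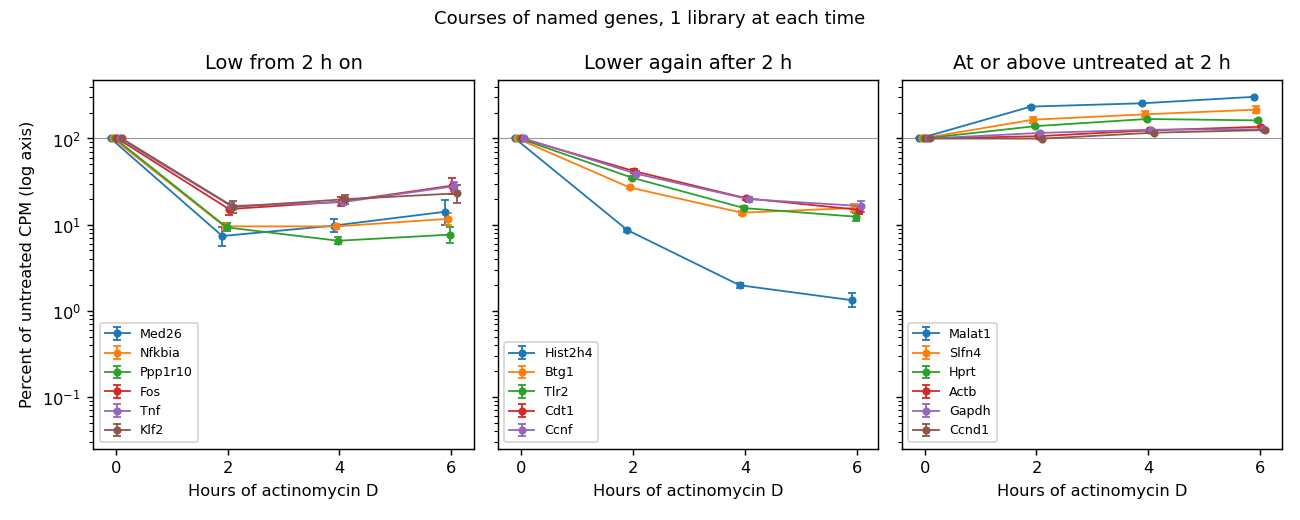
Points give CPM as a percent of the untreated library (log axis) against hours of treatment (1 library per time), with bars for the exact 95% counting interval; points are shifted slightly sideways to separate genes. Left, genes already low at 2 h such as Nfkbia (9.54%, 9.52% and 11.6%); middle, genes lower again later such as Hist2h4 (8.64%, 1.97% and 1.32%); right, genes at or above untreated, from Ccnd1 (99.7% at 2 h) to Malat1 (235%).

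Early loss was more frequent in genes with few exons. Of 9773 protein-coding genes with an annotated transcript, 48.2% of the 191 with 1 exon were at least 2-fold lower (median −0.94). Without histones this share was 29.5% of 139. It was 34.3% of 370 genes with 2 exons, 17.0% of 1905 with 3 to 5, 6.41% of 2994 with 6 to 10, 5.57% of 2981 with 11 to 20 and 2.25% of 1332 with over 20. The order from 2 exons up was therefore steadily downward. Among genes other than histones with a mean CPM of 10 or more, the shares were 32.7% for 1 or 2 exons, 11.5% for 3 to 5, 5.27% for 6 to 10 and 4.31% for over 10. Without histones and numbered Zfp genes they were 31.9%, 14.1%, 5.71% and 4.52%.

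**Figure D4:**
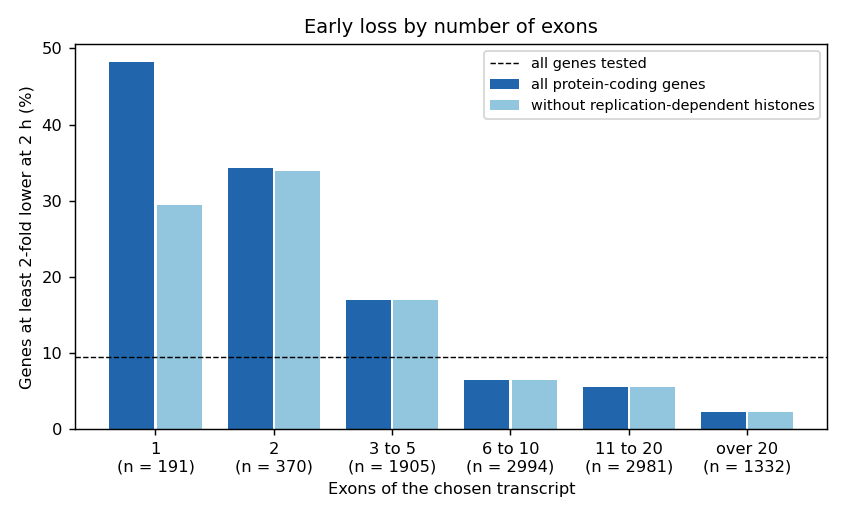
Bars give the percent of protein-coding genes at least 2-fold lower at 2 h, by the number of exons of the chosen transcript, for all genes and without replication-dependent histones; the dashed line is the 9.54% of all genes tested. The share goes from 48.2% with 1 exon (29.5% without histones) to 2.25% with over 20 exons.

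The same order held within genes of like coding length, compared without histones in 5 bins of equal gene number, from 1 (shortest) to 5. In bin 3 (coding length 1161 to 1626 bases) the share was 38.4% for 1 or 2 exons, 35.2% for 3 to 5, 8.78% for 6 to 10 and 2.07% for over 10. In bin 4 (1626 to 2478 bases) it was 54.0%, 46.3%, 20.2% and 4.32%. In bin 5 the 22 genes with 1 or 2 exons had 22.7%, below the 47.4% of those with 3 to 5. Exon number and coding length thus moved together with loss, and within each of the exon classes from 3 exons up the share was higher in each longer bin. For 6 to 10 exons it went from 1.05% in bin 1 to 30.0% in bin 5. GC content at codon wobble positions also moved with loss, from 7.01% in the lowest of 5 such bins to 15.2% in the highest, and its part in the exon order was not tested.

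The 3' UTR heptamer marked a modest difference over all genes. Genes without TATTTAT were at least 2-fold lower in 8.21% of 6922, genes with 1 match in 11.8% of 1861, with 2 in 14.5% of 592 and with 3 or more in 11.2% of 330. The difference was larger at middle UTR lengths. In bin 3 of 5 bins of 3' UTR length (752 to 1371 bases) the shares were 9.12% without, 12.6% with 1, 25% of 80 genes with 2 and 25.8% of 31 genes with 3 or more. In bin 4 (1371 to 2413 bases) they were 9.62%, 11%, 17.1% and 21.9%. In bin 5, the longest, they were 8.17%, 11%, 9.60% and 4.91%, so the order did not hold there.

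Other motifs were searched in the same way on the transcript strand. ATAAATA, the reversed complement of the heptamer, stood in 24.4% of 3' UTRs, and its holders were at least 2-fold lower in 8.78% against 9.57% of genes without it. TGTANATA, the letters read by Pumilio proteins, stood in 25.4%, with 11.2% against 8.76%. By number of its matches the shares were 8.76% with 0, 10.6% with 1, 11.8% with 2 and 14.6% with 3 or more. In bin 3 of 3' UTR length they were 10.0% with 0, 11.1% with 1 and 20.5% of 73 genes with 2. In bin 5 they were 8.67%, 8.26%, 8.12% and 13.3% of 180 genes with 3 or more. The pentamer ATTTA, which the heptamer contains, stood in 68.0%, with 10.1% against 7.77%. The length of the 3' UTR alone gave shares of 6.49% in the shortest bin (5.22% without histones), 9.74%, 10.7%, 11% and 8.91% in the longest. With the classes used here the number of exons gave the widest range of shares. The classes differed in number and size between features, so the features are not ranked by these ranges.

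**Figure D5:**
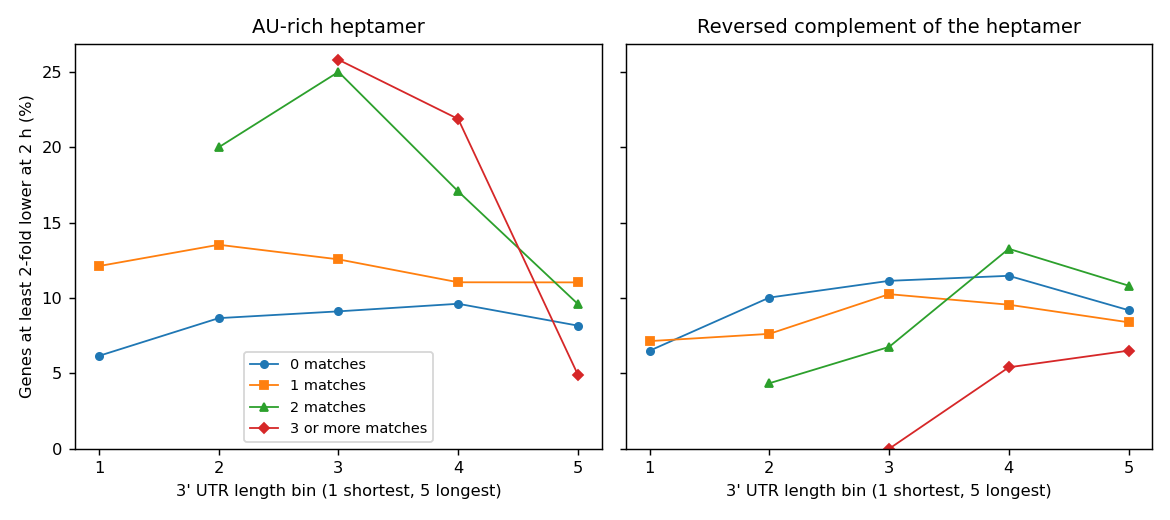
Points give the percent of genes at least 2-fold lower at 2 h within each of 5 bins of 3' UTR length (1 shortest, 5 longest), by the number of matches to the AU-rich heptamer (left) or to its reversed complement (right); classes under 20 genes are not drawn. Left, genes with 2 or more matches reach 25% and 25.8% in bin 3 against 9.12% without a match, and the order is lost in bin 5; right, no class exceeds 13.3%.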

How the data were processed

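RNA from 4 time points of actinomycin D (0, 2, 4 and 6 h) had been sequenced in RAW264.7 cells, with 1 library at each, and libraries were placed by the treatment in their labels. The submitters' processing notes name STAR 2.5.3a, Subread 1.6.3 with featureCounts, and the mm10 build. Not given in the sources used here are the gene annotation used, how strand was set and what was done with reads of several matches. The raw count columns of the deposited table were used as they stood. Its normalized signal columns were deposited as counts divided by 1 number per library, and only these divisors were used, as an alternative scaling. The half-life score and its R2 fraction in the authors' deposited table were copied for named genes and used in no comparison. Columns of no sample numbered 0.

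TMM factors (edgeR 4.0.16, R 4.3.3) came from genes with a mean CPM of at least 1 over the 4 libraries. Effective library sizes relative to untreated were 1.42 at 2 h, 2.49 at 4 h and 0.402 at 6 h. Genes with a mean CPM of at least 1 over the untreated and 2 h libraries were compared. Log2 ratios used a prior count of 0.5, percents of untreated used CPM without it, and intervals were exact binomial (Clopper-Pearson) at 95%, for counting error only. Totals were 35669434, 38260540, 70289647 and 12762100 counts.

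The 32 gene lists, the motifs and the rules were chosen with earlier results of these data known. Named genes were the 15 lowest and 10 highest with a mean CPM of at least 10, leaving out predicted, clone-named, histone, mitochondrial and small RNA genes, then the 2 lowest, the highest and the most counted member of each list, and benchmark genes. Some genes that this rule names are not reported here. Other list members and the genes nearest to the 2-fold line were added after their values were seen. Of 10838 symbols 9965 (91.9%) were matched to GENCODE M21, which gave transcripts, 3' UTRs and 1-based coordinates. The ratio step was tested on simulated data. Alternatives were DESeq2 1.42.0 size factors, TMM over 2 libraries, total counts with and without 4 genes, ribosomal protein scaling, the deposited divisors, other CPM minimums and a prior count of 2.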

Additional observations from a re-analysis of the deposited data

How the results depend on the processing

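No paired analysis was possible because each time had 1 library and no test was made. The counts of 1034 genes at least 2-fold lower and 71 higher stayed within 1.5 times of these values with DESeq2 size factors, TMM over 2 libraries, total counts without 4 genes and a prior count of 2. Total counts gave 558 lower and 254 higher, so that 68.7% of the genes past 2-fold were lower, against 93.6% under TMM. By its construction this scaling is set by the 26.7% of untreated counts in 2 clone-named genes. The deposited divisors gave 1581 lower and 30 higher (98.1% lower) and ribosomal protein scaling 33 higher (1496 lower, 97.8%). A mean CPM of at least 5 left 4 higher (788 lower), a mean CPM of at least 1 over 4 libraries gave 119 higher (990 lower), and no filter beyond 1 count gave 2538 lower and 1989 higher (56.1% lower), since genes of few counts pass 2-fold readily. No value changed sign among those at least 2-fold away from untreated. The scalings could not have changed one, since they shifted the median log2 ratio by at most 0.41. Of 58 named genes at least 2-fold lower, 47 were so under all 7 scaling and prior alternatives. The other 11 (Bag3, Ccnf, Cdt1, Clk4, Dnajb1, Ell, Ier2, Irf9, Mir17hg, Snhg6 and mt-Nd4) missed 2-fold with total counts. Depth limits genes at a CPM near 1 most.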
